A study of Mus musculus with 11 samples.

Results

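*Esm1*, *Apln*, *Aplnr*, *Cxcr4*, *Ackr3*, *Ramp3*, *Mcf2l* and *Lamb3*, genes used as markers of sprouting endothelial tip cells outside the VEGF and Tie families, were followed through RNA-seq libraries of mouse bone marrow endothelium. They were taken by gene symbol and make up 8 of the 27179 rows of the count table. Of these, 7 had enough reads to be tested across genes, and *Lamb3* had not. The libraries were made from endothelial cells with high CD31 and high endomucin, the surface pair that marks type H capillaries of bone, sorted by flow cytometry from wild-type BALB/c mice. Tumour-burdened mice had received RFP-labelled 4T1.2 cells, a BALB/c mammary cancer line that spreads to bone, and their bones were microdissected by fluorescence into infiltrated marrow (met, 3 libraries) and neighbouring marrow without visible tumour (non-met, 6 libraries). Age-matched mice without tumour gave the control libraries (2). No group carried a transgene or a drug treatment, the mouse pools held between 1 and 4 animals each, and the line is a single tumour model. Among the tumour-burdened mice, non-met 1 and 5 were prepared from pool 1. Met 1 shared pool 2 with non-met 2 and 6, met 2 shared pool 3 with non-met 3, and met 3 shared pool 4 with non-met 4. Libraries of the same pool therefore share animals and are not independent.

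A growing capillary is led by a tip cell, which extends filopodia into the tissue while stalk cells behind it form the tube. Tip cells switch on a set of secreted factors, receptors and matrix genes, among them the proteoglycan endocan (*Esm1*) and the peptide apelin (*Apln*), which acts on the receptor APJ (*Aplnr*) of neighbouring endothelium. In marrow the chemokine CXCL12 is made mostly by stromal and endothelial cells and is read by the signalling receptor CXCR4 and by the scavenging receptor ACKR3. Adrenomedullin acts on endothelium through the receptor CALCRL, whose ligand preference is set by the accessory proteins RAMP2 and RAMP3.

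The methods of the study describe antibodies to CD45 and Ter-119 that removed blood cells in the endothelial sort. Total counts per library were 5029771 and 19539761 for the controls, 733342 to 7683451 for non-met and 2547520 to 8771860 for met. Of 20 general endothelial markers, 18 to 20 had more than 3 reads in every library, and the sort markers *Pecam1* (CD31) and *Emcn* (endomucin) were present throughout. Transcripts of other cells were also read. The 18 granulocyte markers summed to 161 to 388 CPM (counts per 1000000 counts) in the controls, 404 to 5430 CPM in non-met and 125 to 207 CPM in met. The 19 stromal, osteolineage and mural markers summed to 4520 to 11500, 1790 to 5400 and 949 to 3580 CPM in the same order, and to 1300 to 2800, 903 to 2800 and 723 to 1780 CPM without *Cxcl12*, a sum added after the data were seen. In that order the 18 epithelial markers summed to 17.5 to 62.1, 24.5 to 185 and 61.0 to 161 CPM. General endothelial markers summed to 14800 to 21400, 15200 to 27400 and 21200 to 27800 CPM. Stromal sums without *Cxcl12* and epithelial sums overlapped between groups. In the weighted fit (voomLmFit, adjusted threshold 0.05) 0.427% of all genes were called in met against non-met, 1.2% in met against control and 0.636% in non-met against control. Of the 17 tested granulocyte markers 0 were called, although their median fitted log2 fold change was -4.76 in met over non-met, with 1 of 17 above 0, and 5.17 in non-met over control, with 16 of 17 above 0. Of the 9 tested epithelial markers 0 were called, with medians of 3.60 in met and 3.69 in non-met over control, and *Cxcl12* was the only one called of 18 stromal markers.

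Markers of vessel types and of platelets also stood apart in part. The 11 sinusoidal markers summed to 10600 to 12800 CPM in the controls, 8090 to 12900 CPM in non-met and 7000 to 9080 CPM in met. *Stab2*, a scavenger receptor of sinusoids, was called lower in both comparisons with control, *Stab1* was called lower and *Adamts5* higher in met, and *Adamts5* higher in non-met. The 12 arterial markers summed to 594 to 906 CPM in the controls and to 975 to 1390 CPM in non-met and 1190 to 1500 CPM in met, all 9 above both controls, and *Ly6a* was called higher in met than in control. The 8 megakaryocyte and platelet markers summed to 0 to 31.3, 0 to 57.7 and 42.5 to 123 CPM in control, non-met and met, with *Itga2b* (CD41) called higher in met than in control. The quasi-likelihood test kept none of these calls, DESeq2 kept that of *Stab2* in met, and the libraries overlapped between met and control for *Stab1* and *Adamts5*. Sums of B cell, T and NK cell, monocyte and red cell markers overlapped between groups. The part of these vessel types and of other cells in the results for the tip-cell genes was not tested, and in bulk libraries fewer cells of a type and less RNA per cell cannot be told apart.

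Promoter windows of 3 of the genes are shown. RefSeq windows on GRCm38.p6 were matched by symbol for 7 of the 8 genes (13 windows, since *Mcf2l* and *Lamb3* have several starts), and *Aplnr* was not matched. Only the 250 bases before each start were read. *Esm1* is printed because its level in every tumour-burdened library lay below both controls, and *Cxcr4* and *Ackr3* because they bind the same ligand and were each nearly absent from some libraries and well covered in others. Each is given 5′ to 3′ on the strand of the gene, with capitals for TATAAAA and for ACGTG or GCGTG on either strand, where overlapping matches run together.
*Esm1*, chr13:113209409-113209658, plus strand: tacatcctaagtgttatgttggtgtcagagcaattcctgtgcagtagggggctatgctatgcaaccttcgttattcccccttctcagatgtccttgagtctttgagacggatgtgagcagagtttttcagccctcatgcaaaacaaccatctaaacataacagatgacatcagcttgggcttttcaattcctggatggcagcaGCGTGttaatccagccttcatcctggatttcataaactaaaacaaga
*Cxcr4*, chr1:128592300-128592549, minus strand: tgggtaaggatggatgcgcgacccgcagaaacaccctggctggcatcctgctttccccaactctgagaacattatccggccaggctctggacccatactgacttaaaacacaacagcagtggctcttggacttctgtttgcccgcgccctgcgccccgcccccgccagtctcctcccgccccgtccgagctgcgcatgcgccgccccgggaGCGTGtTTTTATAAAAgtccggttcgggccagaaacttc
*Ackr3*, chr1:90203730-90203979, plus strand: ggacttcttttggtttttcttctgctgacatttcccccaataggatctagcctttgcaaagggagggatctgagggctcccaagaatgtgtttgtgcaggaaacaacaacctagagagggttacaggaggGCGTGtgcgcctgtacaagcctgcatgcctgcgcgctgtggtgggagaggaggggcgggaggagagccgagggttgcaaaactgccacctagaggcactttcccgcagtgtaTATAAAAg

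TATAAAA was found in 2 of the 13 windows, those of *Cxcr4* and *Ackr3*, and in 4.98% of all 32851 promoter windows read over the same 250 bases. ACGTG or GCGTG, the core letters of a hypoxia response element, was found in 7 of the 13 windows and in 38.6% of all windows. *Esm1* and *Cxcr4* each held 1 such match, and the *Apln* window held none. These matches describe the letters of the windows and not sites of binding.

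Measured per length, the apelin receptor was the most abundant of the genes and *Lamb3* the least. The median log2 RPKM over the 11 libraries (CPM per kilobase of counted gene length, prior count 2) was 7.93 for *Aplnr*, higher than for 98.6% of the genes tested, and 6.08 for *Ramp3*, higher than for 92.5%. *Aplnr* lay above *Ramp3* in 10 of 11 libraries, and *Ramp3* above *Cxcr4* in 11 of 11. The next genes were close together, with medians of 4.51 for *Cxcr4*, 4.34 for *Ackr3*, 4.27 for *Mcf2l*, 4.14 for *Apln* and 3.70 for *Esm1*. Neighbours in that order could not be separated by library, since *Cxcr4* exceeded *Ackr3* in 5 of 11 libraries, *Ackr3* exceeded *Mcf2l* in 5, *Mcf2l* exceeded *Apln* in 5 and *Apln* exceeded *Esm1* in 6. The SD over libraries was 0.586 for *Aplnr* and 1.55 for *Ramp3* but 2.62 to 3.85 for *Cxcr4*, *Ackr3*, *Mcf2l*, *Apln* and *Esm1*, so that the middle of the order is a matter of which libraries held reads.

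**Figure D1:**
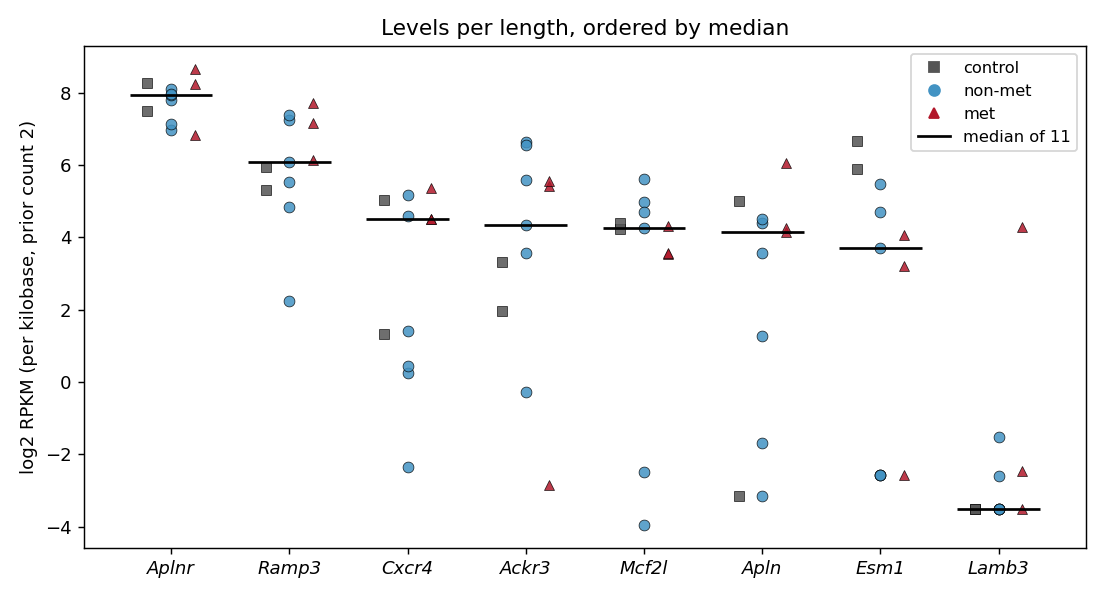
Level of each gene per length (log2 RPKM, prior count 2) in the 11 libraries, with symbols for group and a line at the median. *Aplnr* stayed within 6.84 to 8.66, whereas *Esm1* ran from -2.56, which stands for 0 reads, to 6.67.

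Across the 3 comparisons, few of the 7 tested genes passed the adjusted threshold of 0.05 in the weighted fit over 11948 genes (voomLmFit with sample weights). Between met and non-met 0 of 7 passed, against 0.427% of all genes (51), although *Cxcr4* and *Apln* had an unadjusted P under 0.05. The edgeR quasi-likelihood test, DESeq2 and limma-trend also called 0 of 7 there. Between met and control 1 of 7 passed (*Aplnr*, lower in met), against 1.2% of all genes, and between non-met and control 1 of 7 passed (*Esm1*, lower in non-met), against 0.636%. The groups did not overlap for 0 of 7 genes between met and non-met, where this held for 1.98% of all genes, and for 1 of 7 between non-met and control (*Esm1*), where it held for 6.29%. Between met and control the groups did not overlap for 2 of 7 (*Esm1* below, *Ramp3* above), and with 3 libraries against 2 this was so for 20.7% of all genes. The median fitted log2 fold change of the 7 genes was 1.70 for met over non-met, 0.69 for met over control and -0.43 for non-met over control, beside 0.08, -0.09 and -0.33 over all genes. Met and non-met were set against the same 2 controls.

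**Figure D2:**
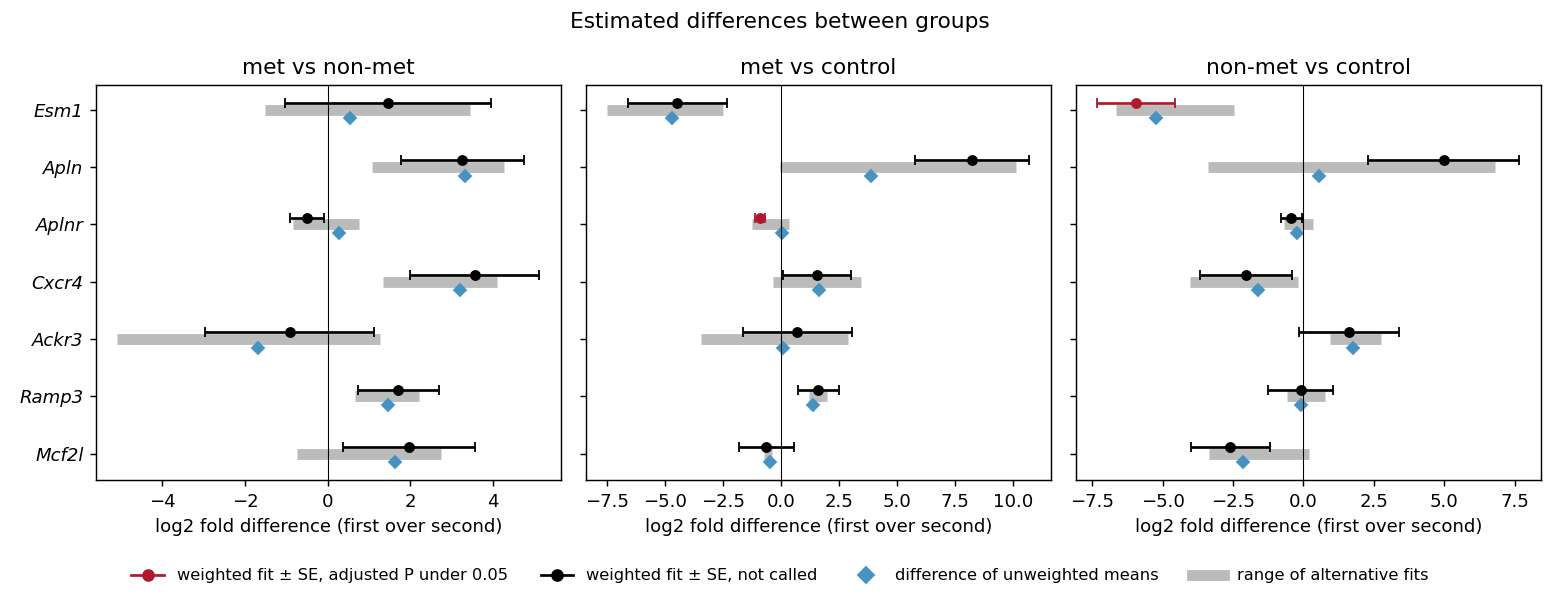
Estimated log2 fold difference of the 7 tested genes in the 3 comparisons, as the weighted fit with its standard error (red where adjusted P was under 0.05), the difference of unweighted group means, and the range of alternative fits as a grey bar. *Aplnr* in met against control has a weighted value of -0.93 beside an unweighted difference of 0.03, while both values for *Esm1* in non-met against control lie below 0.

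*Esm1* (Entrez 71690, chr13:113209659-113218104 on GRCm38, plus strand) encodes endocan, a proteoglycan secreted by endothelium and a classical tip-cell marker. It measured 124 and 214 CPM in the controls. The met libraries 1 to 3 measured 0, 34.9 and 19.2 CPM, and the non-met libraries ran from 0 through a median of 13.5 to 93.3 CPM. Every tumour-burdened library was below both controls, and 4 of these 9 held no *Esm1* read. The group means were 169 ± 63.9 CPM in control (SD, n = 2), 29.2 ± 38.3 in non-met (n = 6) and 18.0 ± 17.5 in met (n = 3).

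In the weighted fit *Esm1* fell by 5.94 on the log2 scale in non-met against control (SE 1.37, voomLmFit adjusted P = 0.0415). The exact two-sided permutation test of the unweighted means gave a difference of -5.24 and P = 0.143, where 28 splits allow 0.0357 at the smallest. The call was lost without any of the non-met libraries that held 0 reads, with adjusted P = 0.0935 without non-met 2, 0.118 without non-met 4 and 0.136 without non-met 6, and 11 of 20 alternative fits kept it. The estimate was -2.52 with the quasi-likelihood test and -2.45 with DESeq2 (adjusted P = 1 each), and the call was also lost with limma-trend (0.936), without sample weights (0.0854), with RLE scaling (0.0592) and with libraries of the same pool summed (0.233). The sign was the same in all 20, and adjusted P ran from 0.0273 to 1. Met against control had a fitted value of -4.48 (SE 2.14, adjusted P = 0.346) and an exact permutation P of 0.2, the smallest possible being 0.1. That fitted value was -2.52 without met 1, -7.49 without met 2 and -6.93 without met 3. For *Esm1* in met and non-met the weighted estimate was 1.46 (SE 2.49, adjusted P = 0.931), and the groups overlapped throughout.

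The *Esm1* zeros followed the mice in part. All 3 libraries of pool 2 (non-met 2, non-met 6 and met 1) had 0 reads, while both libraries of pool 1 held it, at 54.8 and 93.3 CPM. Pool 3 measured 27.1 CPM in non-met and 34.9 CPM in met. In pool 4, non-met 4 had 0 reads and met 3 had 167 reads. Non-met 4 was the shallowest library, and at the non-met median of its sister libraries 15 *Esm1* reads would have been counted there, against 187 in non-met 2, and both numbers are above the 3 reads that a count of 0 allows. Those 3 reads correspond to 5.43 CPM in non-met 4 and 0.435 CPM in non-met 2, for counting error only.

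Endocan is described as binding the leukocyte integrin LFA-1. *Itgal*, its alpha chain, had 1 read in all 11 libraries together, and *Itgb2*, the beta chain shared with other leukocyte integrins, was above 3 reads in some libraries and at 0 in others, up to 73.2 CPM in non-met 2. Of the 7 genes listed as partners of *Esm1*, 6 were tested and 0 were called in any comparison, where 0.427% to 1.2% of all genes were called.

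*Apln* (Entrez 30878, chrX:48025146-48034853, minus strand) encodes apelin, the peptide ligand secreted by tip cells. The controls stood apart from each other, at 102 CPM (2079 reads) in control 1 and 0 reads in control 2. In met the levels were 55.1, 209 and 59.9 CPM, and in non-met they ran from 0 through a median of 22.1 to 71.1 CPM. Met libraries all held the transcript, whereas non-met 3, 4 and 5 were at 0.622, 7.24 and 0 CPM, and the top of the non-met range passed the lowest met values.

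The fitted log2 fold change of *Apln* in met over non-met was 3.25 (SE 1.49, unadjusted P = 0.0396, voomLmFit adjusted P = 0.667), and the unweighted difference was 3.33 (exact permutation P = 0.143, with 84 splits that allow 0.0119). The quasi-likelihood test gave 1.83 (adjusted P = 0.997) and DESeq2 1.66 (adjusted P = 1). Within mouse pools the met library was higher by 7.74 in pool 3 and by 2.99 in pool 4 on the log2 CPM scale, and differed by -0.31 in pool 2, so the direction held in 2 of 3 pools. Non-met 3 and non-met 4 held 2 and 4 *Apln* reads, so the sizes in pools 3 and 4 depend on the prior count. With pool as a fixed block the estimate was 1.08 (adjusted P = 1). Against control the fitted value was 8.22 in met (SE 2.47, adjusted P = 0.0939), 1.09 with the quasi-likelihood test, 1.10 with DESeq2 and -0.05 without control 2. The fitted difference of *Apln* in non-met over control was 4.98 (SE 2.68, adjusted P = 0.335), and -3.39 without control 2.

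*Aplnr* (Entrez 23796, chr2:85136360-85139923) encodes APJ, the G protein-coupled receptor for apelin. It was read in every library, at 1103 and 643 CPM in the controls, at 1077, 1445 and 408.5 CPM in met and at 445 to 987 CPM with a median of 830 CPM in non-met. The 3 groups overlapped, and the highest and the lowest of all 11 values were met 2 and met 3. Libraries of the same pool and group were close, at 794 and 866 CPM for pool 1 and 987 and 888 CPM for pool 2.

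The weighted fit called *Aplnr* lower in met than in control, with a log2 fold change of -0.93 (SE 0.213, voomLmFit adjusted P = 0.0270). That value rested on few libraries, since control 1 carried 97.1% of the weight of its group and met 3 carried 72.9%. The unweighted group means differed by 0.03 (exact permutation P = 1), the edgeR quasi-likelihood estimate was 0.16 and the DESeq2 estimate 0.11 (adjusted P = 1 for each). Without met 3 the fitted value was 0.32 (adjusted P = 0.469), and without control 1 it was -0.22 (0.967). The call was also lost without met 1 (adjusted P = 0.128), non-met 4 (0.05, at the threshold), non-met 5 (0.185) or non-met 6 (0.0950) and with libraries of the same pool summed (0.485), and 10 of 20 alternatives kept it, over a range of 0.000771 to 1. *Aplnr* in met and non-met differed by -0.51 in the fit (SE 0.408, adjusted P = 0.806) and by 0.26 in unweighted means. Non-met and control differed by -0.43 (SE 0.362, adjusted P = 0.505).

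*Apela*, which encodes Elabela, the other ligand of APJ, had 0 reads in all 11 libraries. Of the 18 genes of the apelin axis, which also holds G protein subunits, arrestins, apelin-cleaving peptidases and endothelial targets, 16 were tested. None was called between met and non-met or between non-met and control, and met against control gave 1 higher and 1 lower, where 1.2% of all genes were called. The higher gene was *Gnai2*, an inhibitory G protein subunit, at 1407, 1655 and 1431 CPM in met and 1166 and 961 CPM in control. All 3 met libraries were above both controls, and the groups likewise did not overlap for 20.7% of all genes (fitted difference of *Gnai2* 0.32, SE 0.0393, voomLmFit adjusted P = 1.18e-05, exact permutation P = 0.1, the smallest possible). Without met 3 the *Gnai2* call was lost (adjusted P = 0.0904), as it was with the quasi-likelihood test, DESeq2 and limma-trend (adjusted P = 1 each) and with libraries of the same pool summed (0.101).

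**Figure D3:**
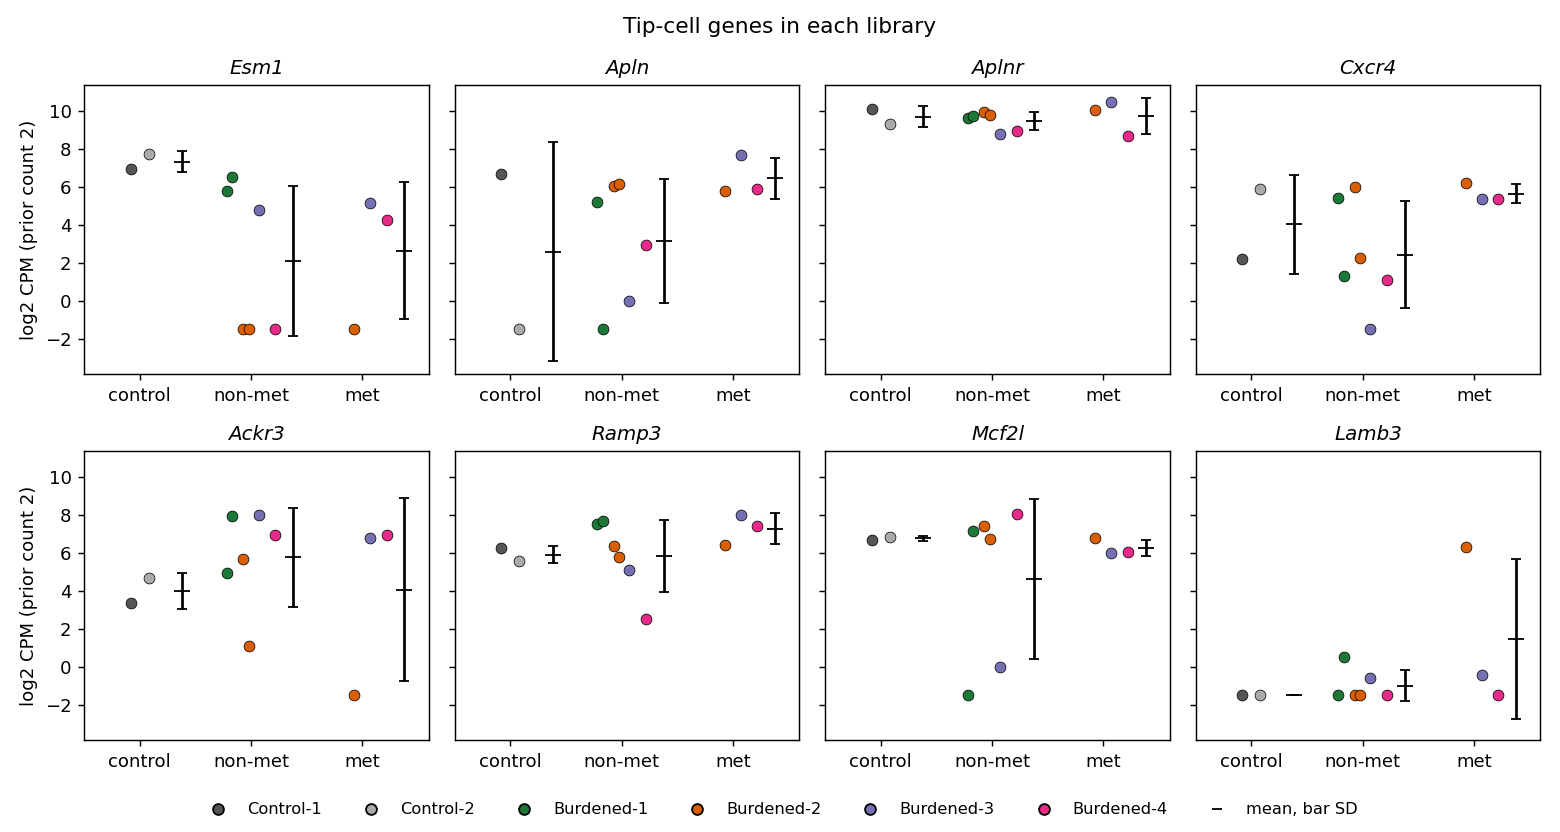
Log2 CPM (prior count 2) of the 8 genes in each library, by group and coloured by mouse pool, with the group mean and SD beside the points; -1.49 stands for 0 reads. *Aplnr* is the steadiest of the genes, and *Esm1* is the one whose tumour-burdened points all lie below the control points.

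*Cxcr4* (Entrez 12767, chr1:128588199-128592299, minus strand) encodes the signalling receptor of CXCL12 and is also abundant on many blood cells. Its met libraries were the most even, at 74.9, 40.9 and 40.9 CPM. The controls measured 4.20 and 59.1 CPM, and the non-met libraries ran from 0 through a median of 3.28 to 64.6 CPM. Only non-met 1 (43.3 CPM) and non-met 2 (64.6 CPM) reached the met range, and the other 4 non-met libraries were between 0 and 4.44 CPM.

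*Cxcr4* in met over non-met had a fitted log2 fold change of 3.55 (SE 1.57, unadjusted P = 0.0336, voomLmFit adjusted P = 0.641) and an unweighted difference of 3.21 (exact permutation P = 0.107), but the estimate was 1.42 with the quasi-likelihood test and 1.33 with DESeq2 (adjusted P = 1 each). It was higher in met in 3 of 3 pools, by 2.09, 6.85 and 4.25 on the log2 CPM scale, and the fit with pool as a block gave 3.75 (adjusted P = 1). Non-met 3 and non-met 4 held 0 and 1 *Cxcr4* reads, so the sizes in pools 3 and 4 depend on the prior count. The difference therefore had the same sign in each pool and did not pass the adjustment. The 2 non-met libraries of pool 1 (43.3 and 2.12 CPM) differed by 4.14 on the same scale, and those of pool 2 (64.6 and 4.44 CPM) by 3.76. Against control, fitted differences of *Cxcr4* were 1.53 in met (SE 1.47, adjusted P = 0.701) and -2.03 in non-met (SE 1.64, adjusted P = 0.483), beside 0.72 and -0.70 with the quasi-likelihood test. The fitted value in non-met was -4.02 without control 1 and -0.204 without control 2. Granulocytes and B cells are known to express *Cxcr4*. Granulocyte transcripts were lower in the met libraries than in all 6 non-met libraries, and B cell markers were highest in non-met 2 (176 CPM summed) and met 1 (174 CPM). The sort gated such cells out by CD45, and the part of any that remained was not tested.

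*Ackr3* (Entrez 12778, chr1:90203980-90215724, plus strand) encodes the scavenging receptor that takes up CXCL12 and also binds adrenomedullin. It was low in the controls, at 9.78 and 25.5 CPM. In met it measured 0, 110 and 122 CPM, and in non-met it ran from 1.78 through a median of 87.5 to 259 CPM. All libraries of pools 3 and 4 were above 100 CPM, while pool 2 held the lowest values, 0 in met 1 and 1.78 CPM in non-met 6. The other non-met library of pool 2 measured 52.0 CPM, and the pair of pool 1 measured 30.3 and 244 CPM.

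No comparison of *Ackr3* passed the test. The fitted difference was 1.61 for non-met over control (SE 1.78, voomLmFit adjusted P = 0.603), with an exact permutation P of 0.357 and 5 of 6 non-met libraries above both controls. Met over control had 0.69 (SE 2.34, adjusted P = 0.933), and met over non-met had -0.93 (SE 2.04, adjusted P = 0.952). The quasi-likelihood estimates were 2.75, 2.13 and -0.61 in the same order (adjusted P = 0.954, 1 and 1). The fitted value for met over non-met became 1.27 without met 1, the library with 0 reads. Met 1 had the highest *Cxcr4* of all 11 libraries and no *Ackr3* read, and non-met 3 had the highest *Ackr3* and no *Cxcr4* read, while met 2 and met 3 held both transcripts.

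*Cxcl12*, the chemokine that both receptors bind, was lower in all 9 tumour-burdened libraries than in both controls. The controls measured 3224 and 8721 CPM, the met libraries 1801, 225 and 679.5 CPM and the non-met libraries from 555 to 2603 CPM. It fell by 4.07 on the log2 scale in met against control (SE 0.345, voomLmFit adjusted P = 2.16e-08), and it fell by 3.12 in non-met against control (SE 0.216, adjusted P = 1.60e-09). Exact permutation P was 0.0357 for non-met, the smallest possible, and 0.2 for met. Without control 2 the values were -2.58 for met and -1.69 for non-met, and the quasi-likelihood test gave -2.73 and -2.22. No single library ended these calls, but they were lost with DESeq2 (adjusted P = 0.124 and 0.281) and with libraries of the same pool summed (0.365 and 0.286), and for non-met with limma-trend (0.121). *Cxcl12* is itself a marker of marrow stroma. Of the 18 tested genes of the stromal, osteolineage and mural list it was the only one called in either comparison, and 9 of 18 were fitted above 0 in non-met against control (median 0.68) and 7 of 18 in met against control (median -0.52). *Lepr*, a marker of that list, also lay below both controls (246 and 979 CPM) in all 9 tumour-burdened libraries, at 0.622 to 221 CPM. Control 2 was highest for both genes. *Col1a2*, *Kitl* and *Pdgfra* were within the control range in some of these libraries. Over all genes the groups did not overlap for 20.7% in met and 6.29% in non-met against control. The part of stromal transcripts in the *Cxcl12* difference was not tested.

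Of the 12 genes of the CXCL12 axis, all 12 were tested. Met against non-met gave 2 higher and 0 lower, where 0.427% of all genes were called in either direction. The list was chosen with earlier results of these data known, and the study had already reported *Cxcl11* as upregulated in met endothelium. The count is therefore no test of the axis. Met against control gave 1 higher and 1 lower (1.2% of all genes) and non-met against control 0 higher and 1 lower (0.636%). *Cxcl11*, an interferon-induced chemokine that is bound by ACKR3 as well as by CXCR3, measured 111, 88.5 and 24.4 CPM in met, 0 reads in both controls and 0 to 1.81 CPM in non-met, so that met stood clear of the other groups. Its fitted difference was 6.49 in met over non-met (voomLmFit adjusted P = 0.0223, exact permutation P = 0.0119). Both tests took libraries that share mouse pools as independent, and no permutation by pool was made for *Cxcl11* or *Cd74*. Over all genes met and non-met did not overlap for 1.98%. Met was also called over control (adjusted P = 0.0217). All non-met and control libraries had 3 reads or fewer, so these fitted folds depend on the prior count. *Cd74*, the invariant chain of MHC class II and a receptor for MIF, measured 132, 171 and 287 CPM in met and 0 to 36.1 CPM in non-met (5.62, SE 1.24, adjusted P = 0.0376, exact permutation P = 0.0119). Its controls were at 17.6 and 36.5 CPM and lay below met without passing the adjustment (adjusted P = 0.176).

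With the mouse pool as a fixed block neither call held (*Cxcl11* 5.57 and *Cd74* 4.47, adjusted P = 1 each). Both were also lost with the quasi-likelihood test (adjusted P = 0.537 each), with limma-trend (0.461 for *Cxcl11* and 0.911 for *Cd74*) and with libraries of the same pool summed (0.288 and 0.443), and *Cd74* with RLE scaling (0.0560). DESeq2 kept both (0.00717 for *Cxcl11* and 0.0402 for *Cd74*). Against control the *Cxcl11* call was lost with the quasi-likelihood test (0.886), with limma-trend (0.513) and with pool libraries summed (0.110), and kept with DESeq2 (0.00386). The *Cxcl11* call against non-met was lost without non-met 1 (adjusted P = 0.0719), non-met 2 (0.0671), non-met 5 (0.0830), non-met 6 (0.0880), met 1 (0.0636) or met 2 (0.0890), and against control without control 1 (0.135), met 2 (0.0586) or non-met 5 (0.0518). The *Cd74* call was lost without non-met 1 (0.140), non-met 3 (0.0835), non-met 5 (0.134), non-met 6 (0.147), met 2 (0.0669) or met 3 (0.188). The range over alternatives was 0.00585 to 1 for *Cxcl11* and 0.0296 to 1 for *Cd74* in met over non-met.

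*Ramp3* (Entrez 56089, chr11:6658506-6677478, plus strand) encodes the accessory protein that turns CALCRL into an adrenomedullin receptor and steers its recycling. A predicted gene, *Gm11978*, overlaps it and has a row of its own, and the use of strand in counting is not given in the sources used here. The controls measured 75.4 and 48.0 CPM, the met libraries 85.9, 258 and 174 CPM, and the non-met libraries from 5.43 through a median of 69.1 to 204 CPM. Every met library was above both controls, and non-met spanned both groups.

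The fitted difference of *Ramp3* was 1.60 in met over control (SE 0.890, voomLmFit adjusted P = 0.444) and 1.70 in met over non-met (SE 0.980, adjusted P = 0.744). Exact permutation P was 0.2 and 0.262. It was higher in met in 3 of 3 pools, by 0.34, 2.89 and 4.91 on the log2 CPM scale, and the pool block gave 1.67 (adjusted P = 1). The pool 4 value was taken against 3 reads in non-met 4, the shallowest library, so its size depends on the prior count. The sign was the same in all alternatives for both comparisons, with fitted values of 1.19 to 1.97 and 0.66 to 2.20, and no alternative passed. Repeat libraries of the same mice were close, at 186 and 204 CPM in pool 1 and 82.3 and 56.0 CPM in pool 2. Non-met over control was -0.09 (SE 1.15, adjusted P = 0.961).

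*Calcrl*, the receptor that RAMP proteins partner, was read in every library at 86.0 to 401 CPM, and *Ramp2*, the partner that favours adrenomedullin, at 223 to 738 CPM. *Ramp2* was higher in all 3 met libraries (317 to 524 CPM) than in both controls (232 and 240 CPM), with a fitted difference of 1.05 (SE 0.352, voomLmFit adjusted P = 0.135). Met and control did not overlap for 20.7% of all genes. *Ramp1*, the CGRP partner, was found above 3 reads only in non-met 4, at 95.9 CPM. The ligand *Adm* was low, at 18.3 and 15.04 CPM in the controls, 26.9 CPM in met 1, 35.2 CPM in non-met 3 and at most 0.888 CPM elsewhere, and *Adm2* had 0 reads throughout. Of the 9 genes of the adrenomedullin axis 5 were tested and 0 called in any comparison, beside 0.427% to 1.2% of all genes.

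*Mcf2l* (Entrez 17207, chr8:12873806-13020502, plus strand) encodes an exchange factor of the Dbl family, which acts on the actin cytoskeleton. Both controls were alike, at 103 and 116 CPM, and the met libraries measured 109, 64.3 and 65.3 CPM. The non-met libraries ran from 0 through a median of 124 to 270 CPM. Non-met 1 had 0 reads and non-met 3 had 2, while the other 4 non-met libraries lay between 106 and 270 CPM, around or above the control level.

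At the median of the other non-met libraries 788 *Mcf2l* reads would have been counted in non-met 1 and 457 in non-met 3. The other library of the same mice as non-met 1, non-met 5, held 142 CPM. No comparison passed: met over non-met was 1.97 in the fit (SE 1.60, voomLmFit adjusted P = 0.809) and -0.53 and -0.74 with the quasi-likelihood test and DESeq2, met over control was -0.64 (SE 1.19, adjusted P = 0.863) and non-met over control was -2.60 (SE 1.40, adjusted P = 0.334). Without non-met 1 the fitted value was 0.515 for met over non-met and -1.155 for non-met over control. Within pools met differed by -0.30, 6.04 and -2.04 from non-met. *Mcf2*, the founding gene of the family, had 0 reads in all libraries.

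**Figure D4:**
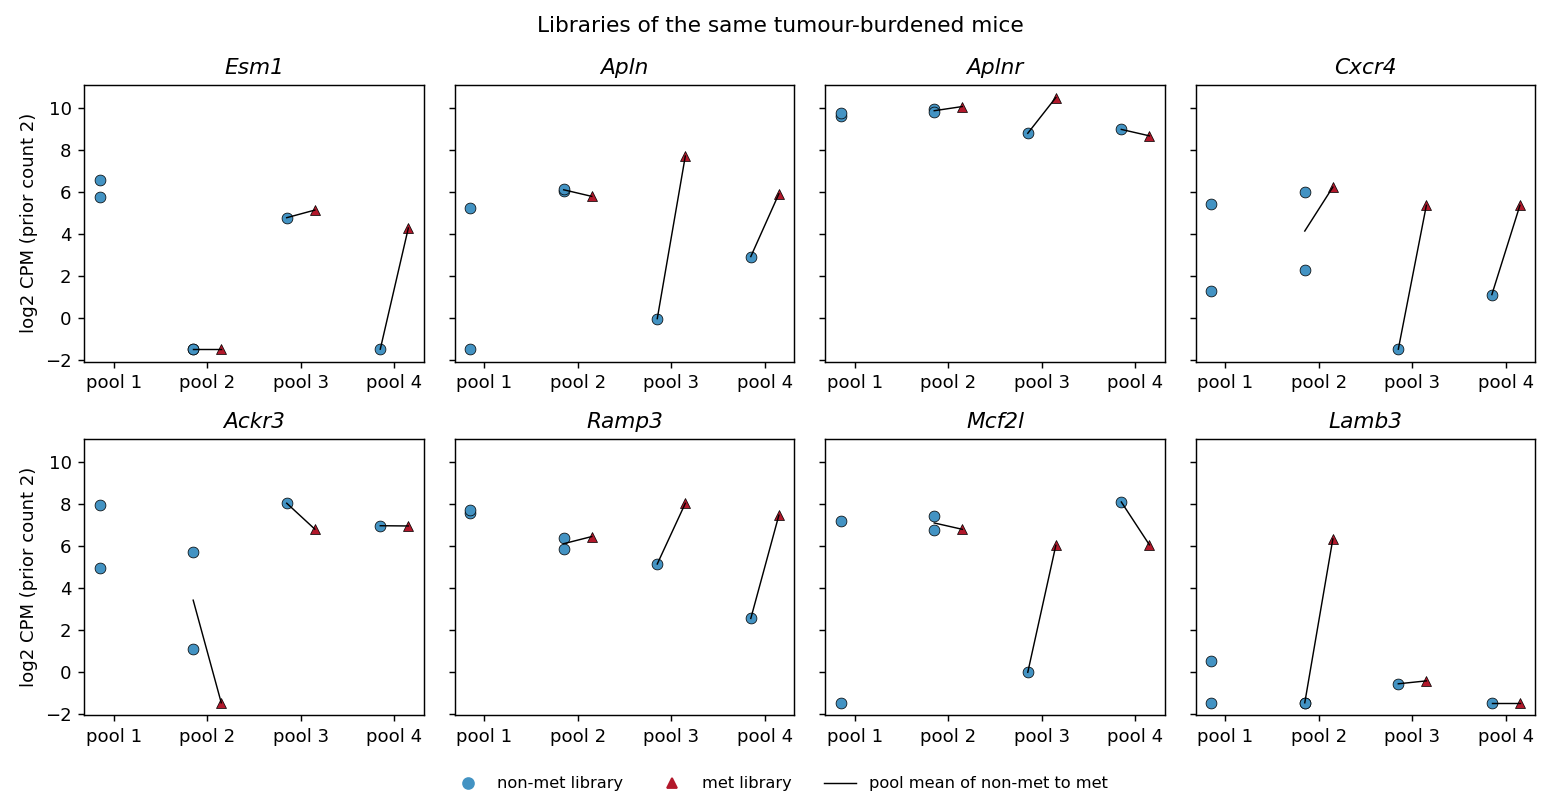
Log2 CPM (prior count 2) of the 8 genes in libraries of the same tumour-burdened mice; circles are non-met, triangles met, and lines join the non-met mean of a pool to its met library. *Cxcr4* and *Ramp3* are higher at the met end of the line in all 3 pools that gave both, and the paired circles of pools 1 and 2 show how far libraries of the same mice and region lie apart.

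*Lamb3* (Entrez 16780, chr1:193294353-193343878, plus strand) encodes the beta chain of laminin-332, a basement membrane protein best known from skin and other epithelia. It was at 79.3 CPM (180 reads) in met 1 and at 2 reads or fewer in each of the other 10 libraries. The gene was not tested across genes, and its exact permutation P was 0.155 for met over non-met and 0.7 for met over control, where only 1 met library carried the value. The other libraries of the same mice, non-met 2 and non-met 6, had 0 reads, which allows up to 0.435 and 2.67 CPM.

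*Lama3*, the alpha chain of laminin-332, was also highest in met 1, at 175 CPM, with 10.8 and 2.07 CPM in met 2 and 3. It measured 30.9 and 55.9 CPM in the controls and 0 to 7.11 CPM in non-met, all 6 below both controls, and met and non-met overlapped through met 3. In non-met against control the fitted difference of *Lama3* was -5.45 (SE 1.38, voomLmFit adjusted P = 0.0628), and the exact permutation P was 0.0357, the smallest possible. That permutation took libraries of the same mouse pool as independent. Over all genes 6.29% did not overlap between non-met and control. Epithelial markers summed to 161 CPM in met 1, near the highest of all libraries (185 CPM). *Spint2*, a protease inhibitor, gave 136 CPM of that sum, and without it met 1 had 25.1 CPM, a value added after the data were seen. In met 1, 5 of the 18 markers had more than 3 reads and 10 had none, *Krt5* and *Krt14* among them, with *Krt8* at 11.5 CPM, *Krt18* at 5.73 CPM and *Epcam* at 0.881 CPM. The part of epithelial transcripts in the *Lamb3* and *Lama3* values was not tested.

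Of the 11 genes of laminin-332 and its receptors 10 were tested, and 1 was called, *Itgb1*, in both comparisons with control, where 1.2% (met) and 0.636% (non-met) of all genes were called. *Itgb1* encodes the beta chain of most matrix integrins. It measured 896 and 791 CPM in the controls, 2190, 1886 and 1912 CPM in met and 912 to 2164 CPM in non-met, so that all 9 tumour-burdened libraries were above both controls. Over all genes the groups did not overlap for 20.7% in met and 6.29% in non-met against control. The fitted difference was 1.10 in met (SE 0.0433, voomLmFit adjusted P = 4.10e-15) and 0.68 in non-met (SE 0.110, adjusted P = 0.00163), and exact permutation P was 0.1, the smallest possible, and 0.107. Without control 1 neither held (adjusted P = 0.135 and 0.358), without non-met 2 the non-met value was 0.14 (0.433), and the quasi-likelihood test, DESeq2 and limma-trend called neither (adjusted P of 0.209 to 0.944). With libraries of the same pool summed the met call held and the non-met call was lost (0.0718). *Itga6*, which pairs with *Itgb1* or *Itgb4*, and *Itgb4*, the beta chain of hemidesmosomes, were not called; *Itgb4* measured 3.52, 68.8 and 107 CPM in met and 0 to 89.1 CPM in non-met.

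**Figure D5:**
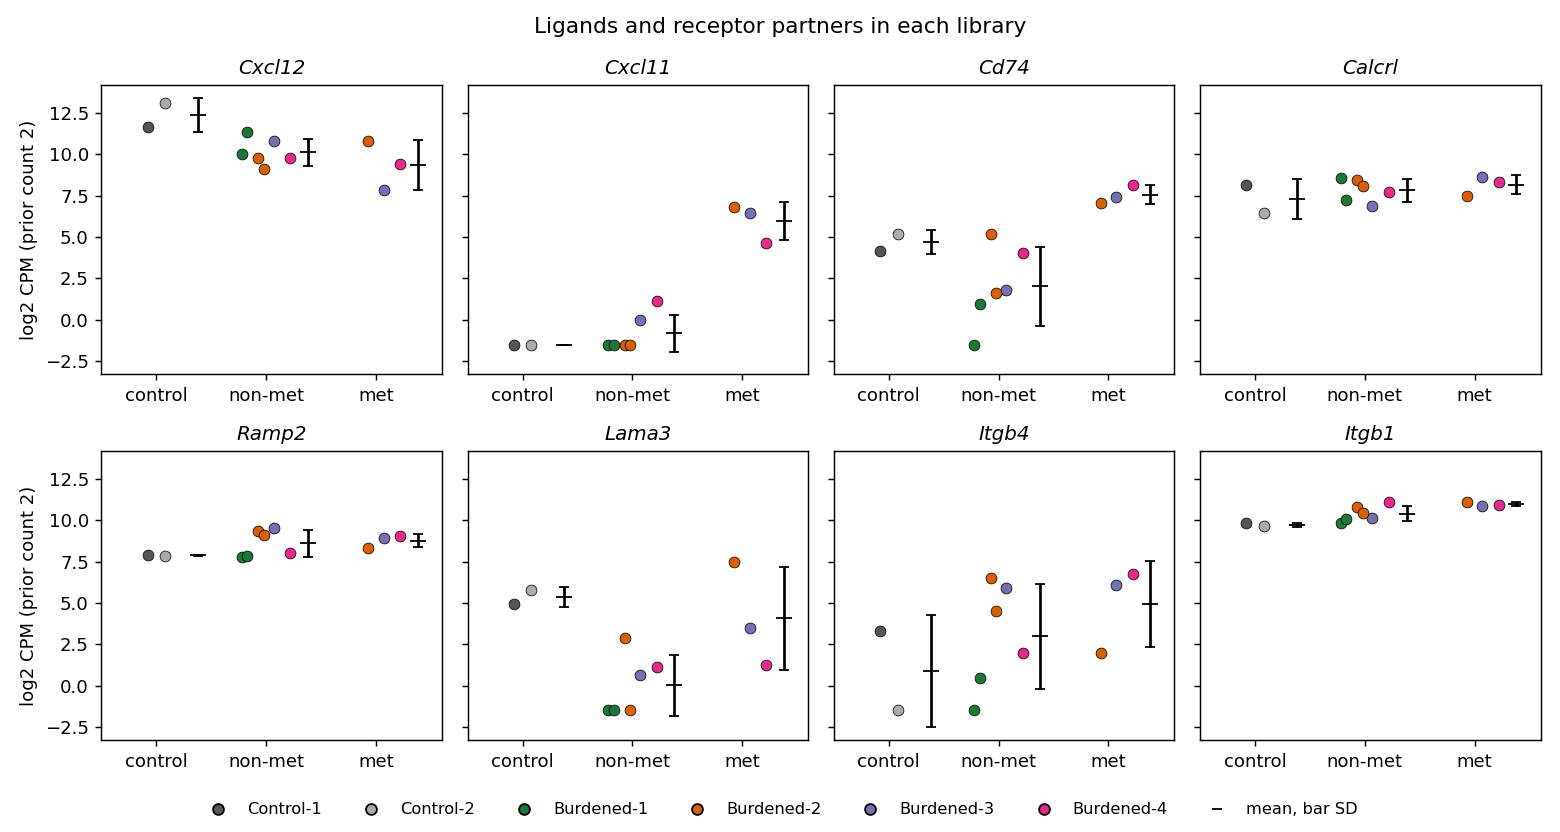
Log2 CPM (prior count 2) of ligands and receptor partners in each library, by group and coloured by mouse pool, with mean and SD. *Cxcl12* lies lower and *Itgb1* higher in every tumour-burdened library than in both controls, and *Cxcl11* and *Cd74* are highest in the 3 met libraries.

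Other genes known from tip cells did not move in a common direction. Of 39 listed, 38 were tested, and met against non-met gave 1 higher and 1 lower, met against control 3 higher and 4 lower, and non-met against control 0 higher and 1 lower. Over all genes 0.427%, 1.2% and 0.636% were called in these comparisons. The medians were 0.19, -0.18 and -0.32, beside 0.08, -0.09 and -0.33 over all genes. *Cd34*, a sialomucin of tip cells and of marrow progenitors, was highest in met, at 1244, 1362 and 1575 CPM against 442 to 679 CPM in non-met and 383 and 186 CPM in control. Met did not overlap with either group, which over all genes held for 1.98% against non-met and for 20.7% against control. Its fitted difference was 1.31 over non-met (SE 0.203, voomLmFit adjusted P = 0.000721, exact permutation P = 0.0119) and 2.29 over control (SE 0.280, adjusted P = 1.19e-05, exact permutation P = 0.1). No single library ended the first call, but it was lost with the quasi-likelihood test (adjusted P = 0.387) and limma-trend (0.435) and kept with DESeq2 (0.0126). The second was lost with the quasi-likelihood test (0.103) and without control 1 (0.0680) and kept with DESeq2 (1.32e-05); with the pool block *Cd34* was higher by 1.09 (adjusted P = 1).

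*Igfbp3*, a secreted binder of insulin-like growth factors, measured 2362, 2023 and 1330 CPM in met and 196 and 313 CPM in control, without overlap (fitted difference 2.65, SE 0.525, voomLmFit adjusted P = 0.00639, 0.721 without control 1 and 0.0546 with limma-trend, 0.00592 with the quasi-likelihood test and 0.00106 with DESeq2). *Ets2*, a transcription factor, was called higher in met than in control by 0.61 (adjusted P = 0.0400), although the groups overlapped. Its unweighted difference was 0.262, and the fitted value ran from 0.145 to 0.823 with single libraries left out. The call was kept by 9 of 20 alternatives. It was lost without control 1 (0.222), non-met 1 (0.0525), non-met 5 (0.127), non-met 6 (0.0782), met 2 (0.473) or met 3 (0.909). *Jun*, an AP-1 factor that also responds to cell handling, was lower in met than in control by 1.65 (adjusted P = 3.13e-09), in non-met than in control by 0.72 (0.00194) and in met than in non-met by 0.93 (0.00457). All 9 tumour-burdened libraries had less *Jun* (609 to 1674 CPM) than the controls (2415 and 2202 CPM), whereas met and non-met overlapped. Over all genes, met and control did not overlap for 20.7%, the share to set beside *Igfbp3* and *Jun*, and non-met and control for 6.29%.

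The *Jun* call of met against non-met was lost with the pool block (-0.42, adjusted P = 1) and without non-met 2 (0.318), non-met 5 (0.0848), non-met 6 (0.0674), met 1 (0.0948) or met 3 (0.147). Its unweighted difference was -0.347 (exact permutation P = 0.405) and the quasi-likelihood value was -0.246. Within pools 2, 3 and 4 met differed from non-met by 0.21, -1.16 and 0.049. *Nrp1*, a VEGF and semaphorin co-receptor of tip cells, was lower in all 3 met libraries (311 to 551 CPM) than in both controls (754 and 686 CPM). Met and control did not overlap for 20.7% of all genes. Fitted values ran from -1.129 to -0.58 with single libraries left out, and the full fit called *Nrp1* lower by 1.01 (SE 0.211, voomLmFit adjusted P = 0.0110). Leaving out control 1 (0.164), met 1 (0.0777), met 2 (0.0691), met 3 (0.407) or non-met 5 (0.0609) ended that call. *Kdr* (VEGFR2) and *Plxnd1* (a semaphorin receptor) were called lower in met than in control, by 0.48 and 0.56, but their groups overlapped and their unweighted means differed by 0.08 and -0.02. Without control 1 the 2 values were 0.38 (adjusted P = 0.263) and 0.22 (0.699), without met 3 they were -0.18 (0.734) and -0.18 (0.768), and without non-met 5 *Kdr* had -0.40 (0.0518).

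Stalk and quiescence genes were listed for contrast. Of 18, 17 were tested, and 1 was called, *Tie1*, an orphan receptor of endothelium. It measured 957, 1469 and 1950 CPM in met, 555 to 1632 CPM in non-met and 823 and 580 CPM in control, so that met lay above control and overlapped with non-met. Met and control did not overlap for 20.7% of all genes. The unweighted differences of *Tie1* were 0.52 over non-met and 1.02 over control. The fitted differences were 0.96 over non-met (SE 0.149, voomLmFit adjusted P = 0.000721) and 1.19 over control (SE 0.0929, adjusted P = 4.97e-09). Without met 3 these were 0.50 (0.516) and 0.73 (0.121), without non-met 2 the first had adjusted P = 0.0519, and with the pool block it was 0.11 (adjusted P = 1). The calls for *Ets2*, *Jun*, *Nrp1*, *Kdr*, *Plxnd1* and *Tie1* were each lost with the quasi-likelihood test, with DESeq2 and with limma-trend. With libraries of the same pool summed the calls for *Nrp1* (adjusted P = 0.164), *Kdr* (0.340), *Plxnd1* (0.262), *Ets2* (0.246) and, for met against non-met, *Jun* (0.136) were lost too. Among the general endothelial markers 6 of 20 were called higher in met than in non-met, *Tie1* and the sort marker *Pecam1* among them, against 0.427% of all genes, with a median of 0.41 beside 0.08 over all genes. The quasi-likelihood test, DESeq2, limma-trend and the pool block each called 0 of the 20, and without non-met 2 or without met 3 only 1 was called, *Pecam1*.

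Genes with the most similar pattern over the 11 libraries were looked up among 4544 genes with a mean of at least 50 CPM (4545 for *Cxcr4*, which was not one of them). This is a description over libraries that share pools and differ in depth, and each r is among the highest of all genes compared. Pearson r of log2 CPM was 0.904 with *Zfp608*, 0.896 with *Cd276* and 0.882 with *Calcrl* for *Apln*, and 0.895 with *B3gat3*, 0.893 with *Erg* and 0.837 with *Meox1* for *Aplnr*. For *Cxcr4* it was 0.913 with *Cav2*, 0.882 with *Coro1b* and 0.879 with *Gpr107*, and for *Ackr3* it was 0.942 with *Rnf115*, 0.940 with *Cilk1* and 0.939 with *Mcur1*. *Ramp3* was closest to *Dennd5b* (0.915), *Ep400* (0.910) and *Tmpo* (0.901), and *Mcf2l* to *Ptpn9* (0.975), *Trmt2a* (0.964) and *Pgm2l1* (0.906). The lowest library was at 0 CPM for *Zfp608*, *Cd276*, *Meox1*, *Mcur1*, *Dennd5b*, *Ptpn9*, *Trmt2a* and *Pgm2l1*, whereas *Calcrl*, *Erg* and *Coro1b* stayed at 56.0 CPM or more. *Esm1* and *Lamb3* had more than 3 reads in fewer than 8 libraries and were not compared in this way.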

How the data were processed

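RNA from small numbers of sorted cells was amplified with a low-input full-length kit, per the labels. The authors used Rsubread for alignment to mm10 and featureCounts for counting by Entrez identifier, and the deposited values are raw counts, the same in the joint table as in all 11 separate ones. Symbols and coordinates came from RefSeq on GRCm38.p6 (25275 rows) and GENCODE (18). Unnamed (1886), ribosomal RNA (36) and predicted (1794) rows, which held 1.95% to 15.8% of a library's counts, were left out, and filterByExpr (minimum count 10, total 15) kept 11948 genes. Counts were scaled by TMM, since the study names no scaling. As the study states, voomLmFit of edgeR 4.0.16 with sample weights was fitted, here to all 11 libraries and 3 groups, with limma 3.58.1 (R 4.3.3) and Benjamini-Hochberg adjustment. Unweighted log2 CPM (prior count 2) was compared by exact two-sided permutation, over 84, 10 and 28 splits. These splits and the main fit took each library as independent. Libraries of the same pool share animals, so these P values can be too small. The fits were tested on simulated data, where at the spread of these libraries the weighted fit made more false calls than quasi-likelihood and limma-trend, so its calls are given with values of the other tests. The genes and lists were chosen with earlier results of these data known, so a count called in a list does not test that list. Named genes are the 8 genes, their ligands and receptor partners, every listed gene called, the 3 most similar genes (mean of at least 50 CPM) and markers that moved with a result. Pools pair libraries of the same animals by the labels. Deviations from group means, whose correlations within a group are negative by construction, had Spearman correlations across genes of -0.21 and -0.17 for the 2 same-pool pairs of non-met libraries, beside -0.23 to -0.11 for the 13 pairs from different pools, and of -0.02 to 0.02 for the 4 same-pool pairs of met with non-met, beside -0.05 to 0.07 for the 14 from different pools. P values measure the spread between libraries. Intervals and limits from counts cover counting error only. Alternatives were edgeR quasi-likelihood, DESeq2 1.42.0, limma-trend, no sample weights, RLE or library size scaling, no filter, pool as a random or fixed block, libraries of a pool summed, each library left out, and a prior count of 0.5.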

Additional observations from a re-analysis of the deposited data

How the results depend on the processing

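For met against non-met the number of the 7 tested genes called was 0 under all alternatives, and with mouse pool as a fixed block (replicate block) 28 of all genes were called, against 52 with a random block and 51 in the fit reported. The counts of all genes moved with the tool. Quasi-likelihood, DESeq2 and limma-trend called 16, 324 and 2 genes for met against non-met, 10, 228 and 9 for met against control, and 14, 266 and 8 for non-met against control, and 0 of the tip-cell genes. Without a filter the counts were 79, 429 and 184, with pool libraries summed 24, 55 and 33 (0 tip-cell genes each), without sample weights 274 and 140 for the comparisons with control (0 tip-cell genes in non-met), and 160 for non-met with library size scaling. RLE scaling gave 0 tip-cell genes in non-met against control. Leaving out single libraries gave 16 to 87, 36 to 293 and 33 to 228 genes, and 0 to 1 tip-cell genes in each comparison with control. Fitted signs that turned for met against non-met, with quasi-likelihood and DESeq2, were *Esm1* (-0.70 and -0.93), *Aplnr* (0.39 and 0.22, and 0.26 with limma-trend and 0.75 with the pool block) and *Mcf2l* (-0.53 and -0.74, and -0.63 with the pool block). For met against control they were *Aplnr* (0.16 and 0.11, and 0.03 with limma-trend) and *Kdr* (0.027 with quasi-likelihood and 0.08 with limma-trend), and for non-met against control *Apln* (-0.74 and -0.56), *Mcf2l* (0.067 and 0.197) and *Ramp3* (0.62 and 0.75, 0.26 without sample weights and 0.17 without a filter). With a prior count of 0.5 the unweighted difference of *Ackr3* in met against control was -0.58. With single libraries left out, fitted values for met against non-met ran from -1.52 to 3.43 for *Esm1*, -0.84 to 0.75 for *Aplnr* and -5.09 to 1.27 for *Ackr3*, and unweighted differences from -0.71 to 2.60, -0.11 to 0.80 and -3.12 to 1.09. For met against control the fitted ranges were -0.045 to 10.1 for *Apln*, -1.26 to 0.32 for *Aplnr*, -0.37 to 3.44 for *Cxcr4*, -3.46 to 2.89 for *Ackr3*, -0.52 to 0.38 for *Kdr* and -0.63 to 0.22 for *Plxnd1*, and the unweighted ranges -0.20 to 7.96 for *Apln*, -0.36 to 0.57 for *Aplnr*, -0.24 to 3.47 for *Cxcr4* and -1.37 to 2.84 for *Ackr3*. For non-met against control the fitted ranges were -3.39 to 6.78 for *Apln*, -0.70 to 0.35 for *Aplnr* and -0.59 to 0.53 for *Ramp3*, and the unweighted ranges -3.53 to 4.63 for *Apln*, -0.62 to 0.16 for *Aplnr*, -3.45 to 0.26 for *Cxcr4* and -0.44 to 0.59 for *Ramp3*. The cause of these shifts was not tested. Of the 22 calls among the listed genes of signalling and tip cells, those of *Aplnr*, *Kdr* and *Plxnd1* in met against control turned in sign under at least 1 alternative, and the other 19 under none. With 2 control libraries no exact test of met against control can go below 0.1, and genes with fewer than 3 reads in a library are not resolved at this depth.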
